A study of Rattus norvegicus with 6 samples.

Results

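The miRNAs described here are the strands of miR-17, miR-18a, miR-19a, miR-19b, miR-20a, miR-20b, miR-93 and miR-106b in the rat trigeminal ganglion. They were chosen by name: every listed miRNA with 1 of these stems, whatever its arm or copy, was taken, which gave 15 of the 650 miRNAs in the count table. Of the 15, 8 are the strands usually named for these genes (rno-miR-17-5p, rno-miR-18a-5p, rno-miR-19a-3p, rno-miR-19b-3p, rno-miR-20a-5p, rno-miR-20b-5p, rno-miR-93-5p and rno-miR-106b-5p, where rno stands for rat and is left out below). The other 7 are opposite arms. Of the 15 strands, 13 had enough counts to be tested, and miR-18a-3p and miR-20a-3p did not.

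Small RNA counts came from ganglia of Sprague-Dawley rats aged 8 to 10 weeks, taken on the operated side on day 14. In the CCI-ION group (3 libraries) the infraorbital nerve had been tied loosely with silk, a model of trigeminal neuropathic pain. In the sham group (3 libraries) the nerve was only exposed. No genotype or drug differs between the groups. The labels do not say outright that each library is a separate animal, so the spread between libraries may be partly technical. The whole ganglion was used, so fewer cells of a type and less of a miRNA per cell cannot be told apart.

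These miRNAs are made from 3 related clusters, each transcribed as 1 precursor that is cut into hairpins, and each hairpin can yield a 5p and a 3p strand. A mature miRNA pairs with its target messages mainly through bases 2 to 8, the seed, and lowers their output. The miR-17-92 cluster is activated by MYC and E2F factors, restrains the cell cycle inhibitor p21 and the pro-death protein BIM, and is best known for its part in lymphocyte growth and in tumours. The miR-106b-25 cluster lies inside Mcm7, a gene of the DNA replication machinery.

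The mature sequences show why these miRNAs are grouped and where reads could be confused. Seeds are in capitals, and the sequences are those of RefSeq (build GRCr8). All 15 members were matched there, and all 15 were identical to the sequences in the deposited table once T was read as U.
miR-17-5p: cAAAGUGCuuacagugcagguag
miR-20a-5p: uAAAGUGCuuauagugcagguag
miR-20b-5p: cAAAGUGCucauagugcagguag
miR-93-5p: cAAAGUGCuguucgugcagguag
miR-106b-5p: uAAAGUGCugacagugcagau
miR-18a-5p: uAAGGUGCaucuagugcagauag
miR-19a-3p: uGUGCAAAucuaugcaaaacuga
miR-19b-3p: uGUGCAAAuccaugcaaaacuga

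Of the 8 strands, 5 share the seed AAAGUGC, miR-18a-5p has AAGGUGC, and both miR-19 strands have GUGCAAA. Counted from the 5′ end, miR-17-5p differs from miR-20a-5p by C1U and C12U, and from miR-20b-5p by U10C and C12U. miR-20a-5p differs from miR-20b-5p by U1C and U10C. The miR-19 strands differ at 1 base, U11C. How the authors counted reads that fit more than 1 of these is not stated in the labels. The values of miR-17-5p, miR-20a-5p, miR-20b-5p, miR-19a-3p and miR-19b-3p, the 5 members within 2 bases of another listed miRNA, are therefore uncertain. miR-93-5p differs from miR-17-5p by 4 bases (U10G, A11U, C12U, A13C) and miR-106b-5p by 3 (C1U, U10G, G20A).

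The gene of origin of a strand follows from the same RefSeq table. In GRCr8 the miR-17-92 cluster holds Mir17, Mir18a, Mir19a, Mir20a, Mir19b1 and Mir92a1, in that order, on the plus strand of chromosome 15 (chr15:98587861-98588622 from the first to the last mature base). Its relative on the minus strand of chromosome X (chrX:137342788-137343637) holds Mir106a, Mir20b, Mir19b2, Mir92a2 and Mir363. The third cluster, Mir106b, Mir93 and Mir25, lies on the minus strand of chromosome 12 (chr12:22156652-22157123), within Mcm7. No gene in the annotation spans either of the other two. The authors' reads were handled on rn6, so these positions are not those of their build. In rat, miR-17-5p and miR-19b-3p are encoded by both chromosome 15 and chromosome X. miR-18a, miR-19a, miR-20a and miR-17-1-3p come from chromosome 15 alone, and miR-20b and miR-17-2-3p come from chromosome X alone.

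The hairpins of Mir20a and Mir20b illustrate how near-identical 5p strands sit opposite 3p strands that are easier to tell apart (mature strands in capitals, 5p first).
Mir20a: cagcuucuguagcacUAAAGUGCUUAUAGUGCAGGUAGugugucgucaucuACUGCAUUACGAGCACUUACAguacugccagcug
Mir20b: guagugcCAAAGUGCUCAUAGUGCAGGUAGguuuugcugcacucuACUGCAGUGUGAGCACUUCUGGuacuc

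Total miRNA counts were 6420434 to 12560545 per library. miRNAs of sensory neurons marked the tissue, with miR-183-5p, miR-96-5p and miR-182 together at 34690 to 45630 CPM in the 6 libraries. CPM is a strand's count scaled to the miRNA counts of its library, with TMM factors. Libraries with the same replicate number deviated together in both groups, so each number was also used as a block, and blocked values are given where they change a call. Values of 3 libraries are always given in the order of their numbers. The libraries numbered 1 differ from the other 4 in several members, as described below.

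The group was a minor part of the ganglion's miRNA. The 15 strands together held 0.079%, 0.0839% and 0.0861% of the miRNA counts in sham, against 0.0894%, 0.0972% and 0.0893% in CCI-ION. The CCI-ION shares were all above the sham shares, but in TMM-scaled CPM the sums overlapped, at 745.7, 865.7 and 871.8 in sham against 848.6, 1004 and 924.2 in CCI-ION. As a share of the larger total to which the authors scaled their RPM values, whose make-up is not stated, the means were in the other order. The group averaged 515 ± 88.5 RPM in sham and 449.8 ± 46.3 in CCI-ION (SD, n = 3 each). The libraries overlapped there too, at 413.2, 558.5 and 573.4 RPM in sham against 405.8, 445.5 and 498 in CCI-ION. miRNA counts were 52.28% to 66.59% of that total in sham and 45.4% to 55.78% in CCI-ION, and the part of this share in the result was not tested.

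The levels of the 8 named strands spanned 2 orders of magnitude. A read covers a whole miRNA and the strands are 21 to 23 bases long, so their CPM can be set side by side, though small RNA libraries capture sequences unequally. miR-93-5p, from the Mcm7 cluster, was the most abundant at 235.2 CPM over the 6 libraries. It was followed by miR-17-5p (142.9 CPM), miR-20a-5p (115.2), miR-20b-5p (76.17), miR-19b-3p (27.46), miR-106b-5p (23.25), miR-19a-3p (7.469) and miR-18a-5p (1.818). miR-93-5p was above miR-17-5p in 6 of 6 libraries with no overlap of their ranges, and so were miR-20b-5p over miR-19b-3p, miR-106b-5p over miR-19a-3p and miR-19a-3p over miR-18a-5p. The ranges of miR-17-5p and miR-20a-5p overlapped, although miR-17-5p was the higher in 6 of 6. miR-20a-5p exceeded miR-20b-5p in 5 of 6 (all but sham library 1). miR-19b-3p exceeded miR-106b-5p in 4 of 6 (all but the libraries numbered 1). The ranges of both pairs overlapped, and neither order held in every library.

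**Figure D1:**
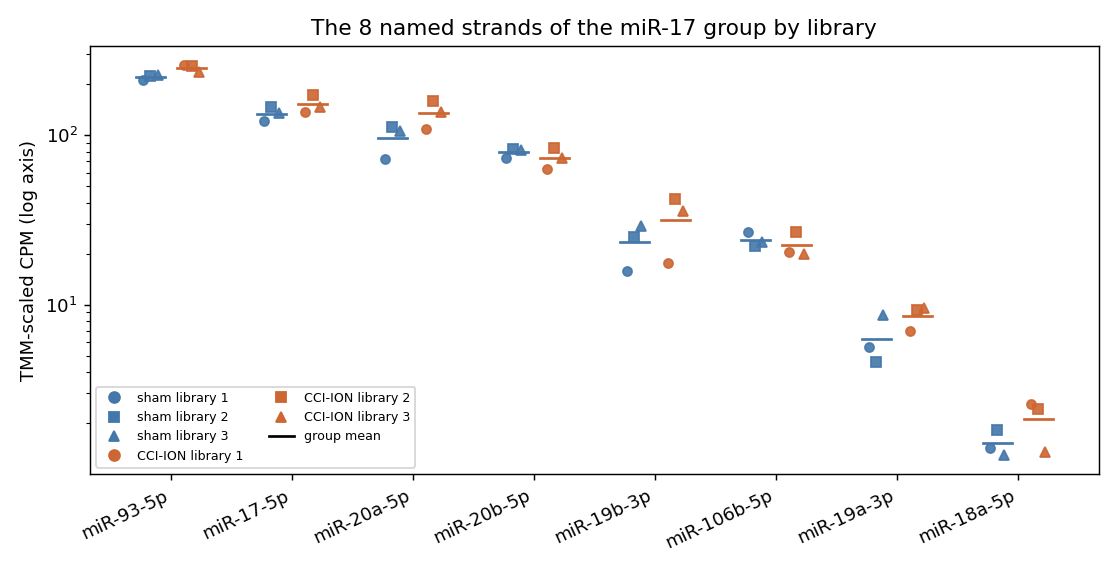
TMM-scaled CPM on a log axis for the 8 named strands, with 1 point per library (shape gives the replicate number) and a line at each group mean. The 3 CCI-ION libraries lie above the 3 sham libraries for miR-93-5p, while for miR-20a-5p the lowest CCI-ION library (108.4 CPM) lies just under the highest sham library (111.2 CPM).

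The opposite arms differed greatly between hairpins. In 5 of the 6 hairpins with both arms listed the 5p strand dominated. The miR-17 entry pools the hairpins of Mir17 and Mir106a, so the arm share of each of these is not known. miR-106b was read mainly from its 3p arm, which made up 86.1% to 91.5% of the reads on both arms in the 6 libraries. miR-106b-3p (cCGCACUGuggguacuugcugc, seed CGCACUG in capitals) averaged 183.9 ± 17 CPM in sham against 196.7 ± 14.9 in CCI-ION. At that level it stood above every named strand but miR-93-5p. miR-106b-5p averaged 24.16 ± 2.47 and 22.35 ± 3.78 CPM. For miR-20a the 5p arm held at least 99.8% of reads in each library, with 0 to 2 counts of miR-20a-3p per library (a floor of 3 counts is 0.225 to 0.483 CPM). For miR-93 the 5p arm held 97.3% to 98.6%, and for miR-20b 89.8% to 94.8%.

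miR-17 left its 3p strands in unequal amounts. miR-17-2-3p, from chromosome X, averaged 45.48 ± 5.98 CPM in sham against 42.09 ± 12.5 in CCI-ION. miR-17-1-3p, from chromosome 15, averaged 1.141 ± 0.107 and 1.094 ± 0.391 CPM. The shared miR-17-5p can therefore not be divided between its genes, since the 3p counts depend on how each arm is kept. The 5p share of all miR-17 reads, pooled over Mir17 and Mir106a, was 74.9%, 73.7% and 74.0% in sham, against 81.2%, 75.5% and 77.7% in CCI-ION. The CCI-ION values were all above the sham values, but a two-sided exact permutation test on 3 against 3 cannot go below 0.1, and it gave p = 0.1 (0.6 adjusted over 6 hairpins). miR-18a-5p and miR-18a-3p together had only 12 to 40 reads per library, so their arm share was loose (in CCI-ION library 3, 83.3% with a Wilson 95% interval of 55.2% to 95.3%, counting error only). No other arm share had an exact permutation p under 0.2.

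**Figure D2:**
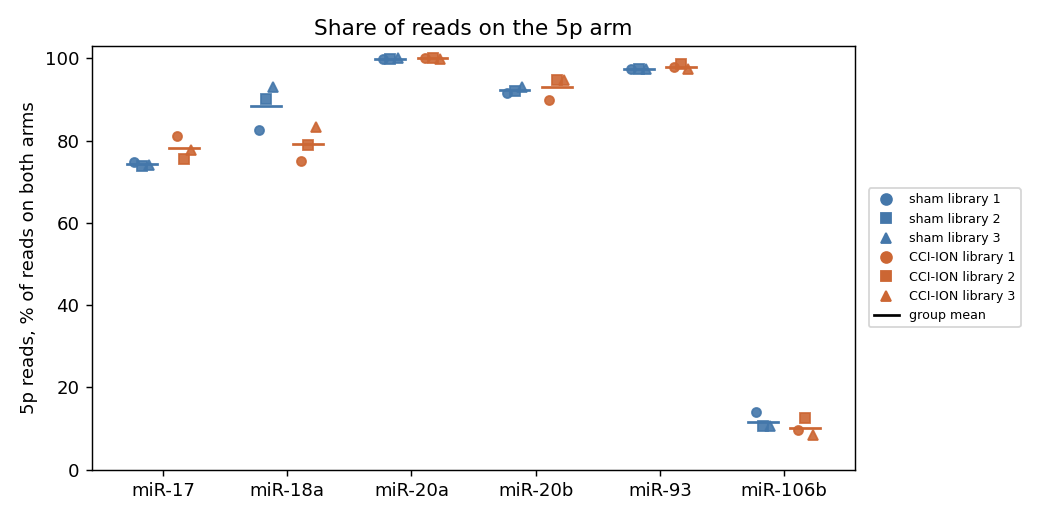
Reads on the 5p arm as a percentage of the reads on both arms of each hairpin (miR-17 pools Mir17 and Mir106a), 1 point per library and a line at each group mean. miR-106b stands apart from the other 5 hairpins in all 6 libraries, and the miR-17 points of the CCI-ION libraries (75.5% to 81.2%) lie above those of sham (73.7% to 74.9%).

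The design sets injured against sham-operated ganglia, to find miRNAs that change after nerve injury. With group as the only term, edgeR's quasi-likelihood test called 0 of the 13 tested strands, and 0 had an unadjusted p under 0.05 (9.94% of all tested miRNAs did). DESeq2 and limma-voom also called 0, with 1 and 0 strands at an unadjusted p under 0.05. Among all 463 tested miRNAs the edgeR fit called 3 (0.648%), DESeq2 13 and limma-voom 3. With the replicate block edgeR called 1 member, miR-20a-5p, which was higher in CCI-ION, where 6.05% of all tested miRNAs were called higher and 5.62% lower. The share of members called is thus near that of all miRNAs. The median log2 fold change of the 13 strands was 0.10 without the block, beside 0.01 for all tested miRNAs. A total of 7 strands had positive values and 6 negative ones. Scaled to the RPM totals, 4 were positive, and the median was -0.25 beside -0.34 for all tested miRNAs.

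miR-20a-5p, which shares its seed with miR-17-5p, had 71.81, 111.2 and 105.4 CPM in sham against 108.4, 157.8 and 136.8 CPM in CCI-ION. Both libraries numbered 1 were the lowest of their group, and the groups overlapped by 1 library each way. Within each number the CCI-ION library was higher, by 1.51, 1.42 and 1.30 times. The log2 fold change was 0.48 ± 0.22 (SE) without the block (edgeR adjusted p = 0.496) and 0.49 ± 0.12 with it (edgeR adjusted p = 0.00134). With the block DESeq2 gave an adjusted p of 0.00137 (5.62% of all tested miRNAs were called higher) and limma-voom 0.0223 (4.75% called higher). With the block the call was lost without the libraries numbered 2 (edgeR adjusted p = 0.066) and without those numbered 3 (0.208). It held without those numbered 1 (0.0172). The log2 fold change in these fits was 0.494, 0.542 and 0.441, close to that of the full block. Over all tested miRNAs the same fits called 27, 2 and 66, against 54 with all libraries. Scaling each library to its RPM total gave 0.15 ± 0.15 with the block (edgeR adjusted p = 0.456), while the median over all tested miRNAs became -0.345.

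Of the strands encoded beside miR-20a on chromosome 15, miR-19a-3p, miR-19b-3p (also encoded on chromosome X) and miR-18a-5p had log2 fold changes of similar size that did not pass the test, while miR-17-5p (0.18), miR-17-1-3p (-0.03), miR-92a-3p (-0.03) and miR-92a-1-5p (-0.27) had values that were smaller or negative. miR-19a-3p, of the GUGCAAA seed family, had 5.634, 4.58 and 8.734 CPM in sham against 6.983, 9.33 and 9.551 in CCI-ION. The groups overlapped, since sham library 3 was above CCI-ION library 1. Its log2 fold change was 0.44 ± 0.30 (edgeR adjusted p = 0.789), and it was 0.24 without sham library 2 and 0.75 without sham library 3. miR-19b-3p had 15.7, 25.04 and 29.11 CPM in sham against 17.59, 41.82 and 35.51 in CCI-ION. The libraries numbered 1 were again the lowest of each group, and the log2 fold change was 0.44 ± 0.36 without the block and 0.40 ± 0.16 with it (edgeR adjusted p = 0.857 and 0.102). Leaving out CCI-ION library 2 gave 0.18 and leaving out CCI-ION library 1 gave 0.73, both in fits with group alone. With the block it was called higher under upper quartile factors (edgeR adjusted p = 0.0311, with 9.29% of all tested miRNAs called higher) and without the libraries numbered 1 (0.0436, with 8.42% called higher). It was not called without those numbered 2 (edgeR adjusted p = 0.502) or 3 (0.537). miR-18a-5p stayed at 1.305 to 1.832 CPM in sham and 1.345 to 2.586 in CCI-ION, from 10 to 30 counts per library. Its log2 fold change was 0.49 ± 0.34 (edgeR adjusted p = 0.789), from 0.29 without CCI-ION library 1 to 0.73 without CCI-ION library 3.

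The most abundant named strands, miR-93-5p and miR-17-5p, had smaller log2 fold changes than miR-20a-5p. miR-93-5p had 211.5, 222.2 and 226.9 CPM in sham against 257.5, 256.7 and 236.1 in CCI-ION. It was the only member whose groups did not overlap (1 of 13, against 13.8% of all tested miRNAs), yet its log2 fold change of 0.18 ± 0.13 was not called (edgeR adjusted p = 0.804, with the block 0.319). miR-17-5p had 120.3, 145.8 and 135.7 CPM in sham against 137.2, 172.9 and 145.4 in CCI-ION. Its groups overlapped, with sham library 2 above CCI-ION libraries 1 and 3 (0.18 ± 0.16, edgeR adjusted p = 0.887). The values of miR-93-5p, miR-17-5p and miR-106b-3p depended on the scale: scaled to the RPM totals they were -0.17, -0.18 and -0.25, none called.

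The group's strands made only on chromosome X had negative values (their partner miR-363-5p, from the same cluster, had 0.10 ± 0.51). miR-20b-5p had 73.24, 82.24 and 81.52 CPM in sham against 62.84, 84.29 and 72.91 in CCI-ION. CCI-ION library 2 was the highest of all 6, and the log2 fold change was -0.11 ± 0.16 (edgeR adjusted p = 0.935). miR-20b-3p averaged 6.627 ± 0.531 CPM in sham against 5.339 ± 1.62 in CCI-ION (-0.30 ± 0.27, edgeR adjusted p = 0.899), and miR-17-2-3p had -0.12 ± 0.24 (0.947). Of the chromosome 12 strands, miR-106b-5p had 26.89, 22.09 and 23.49 CPM in sham against 20.43, 26.7 and 19.91 in CCI-ION. Its groups overlapped on this scale (-0.12 ± 0.18, edgeR adjusted p = 0.941). On the RPM scale it stood at 14.9, 14.25 and 15.45 in sham and 9.769, 11.85 and 10.73 in CCI-ION, with no overlap. On that scale miR-20b-5p (40.58 to 53.62 against 30.05 to 39.29) and miR-20b-3p (3.788 to 4.531 against 2.141 to 3.421) were also lower in CCI-ION without overlap, which made 3 of 13 members beside 29.4% of all tested miRNAs. With the block and that scaling, miR-106b-5p (edgeR adjusted p = 0.0437), miR-20b-5p (0.0217) and miR-17-2-3p (0.0217) were called lower, as were 32.8% of all tested miRNAs. miR-93-3p and miR-17-1-3p, at 5.811 ± 0.184 and 1.141 ± 0.107 CPM in sham, had log2 fold changes of -0.10 ± 0.27 and -0.03 ± 0.35. miR-18a-3p, not tested, had 4, 2 and 1 counts in sham and 10, 4 and 2 in CCI-ION.

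**Figure D3:**
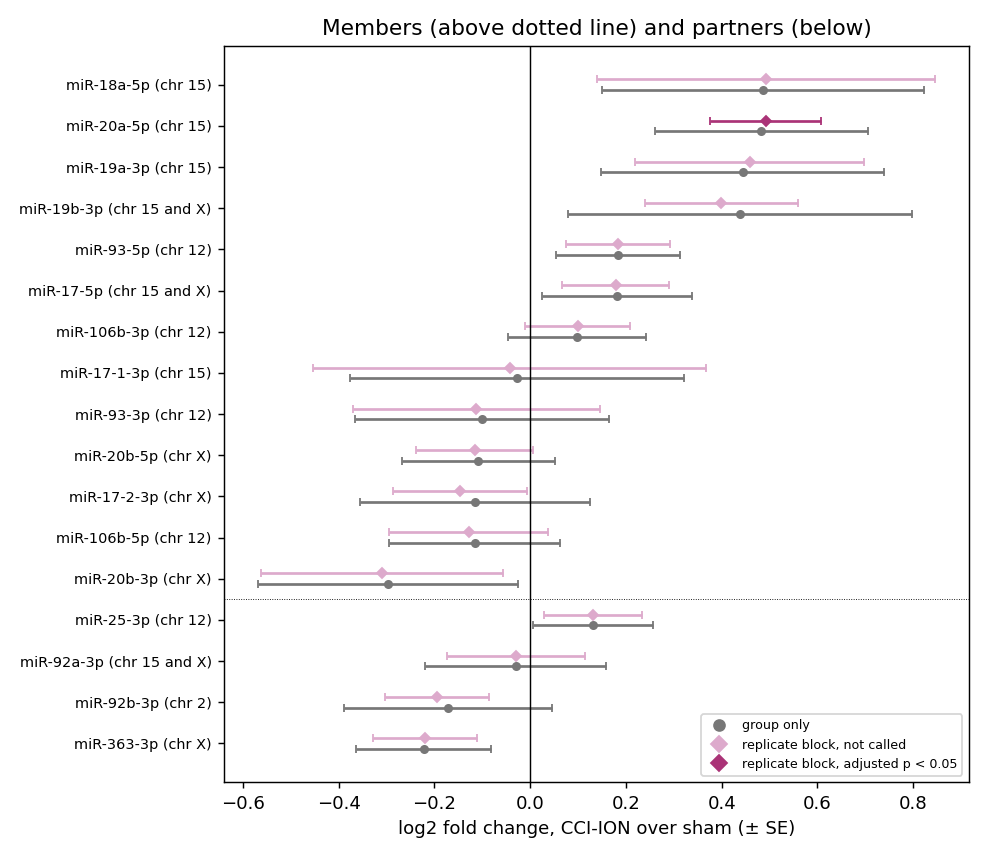
Log2 fold change of CCI-ION over sham ± SE for the 13 tested members and 4 partner strands, with group alone (grey) and with the replicate block (diamonds), and the chromosome of origin in parentheses. Only miR-20a-5p is called with the block, and the chromosome 15 strands miR-18a-5p, miR-20a-5p and miR-19a-3p stand at 0.44 to 0.49 while the members made only on chromosome X stand at -0.30 to -0.11 (miR-17-1-3p, also from chromosome 15, is at -0.03).

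Across the replicate numbers, in TMM-scaled CPM, 7 of the 13 strands were higher in CCI-ION in 3 of 3 numbers and 0 were lower in 3 of 3. The same held for 20.1% and 23.5% of all tested miRNAs. The 7 were miR-17-5p, miR-18a-5p, miR-19a-3p, miR-19b-3p, miR-20a-5p, miR-93-5p and miR-106b-3p. The count depended on the scale: in RPM each of the 7 was lower in CCI-ION within some number. In number 2, for example, miR-20a-5p had 71.71 RPM in sham and 70.02 in CCI-ION, and miR-93-5p 143.3 and 113.9. The 7 strands cannot be taken one by one. They share precursors and, in part, reads, so they are not 7 separate observations on either scale.

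Ratios of members within a library do not depend on how libraries are scaled, and those among miR-17-5p, miR-20a-5p and miR-20b-5p did not overlap between groups. The ratio of miR-20a-5p to miR-20b-5p was 0.981, 1.35 and 1.29 in sham against 1.73, 1.87 and 1.88 in CCI-ION. All CCI-ION libraries lay above all sham libraries. The ratio of miR-20a-5p to miR-17-5p was 0.712 ± 0.10 in sham and 0.881 ± 0.08 in CCI-ION, and that of miR-17-5p to miR-20b-5p was 1.69 ± 0.07 and 2.08 ± 0.096 (SD, n = 3 each), also without overlap. The ratio of the other near-identical pair, miR-19b-3p to miR-19a-3p, overlapped, at 2.79, 5.47 and 3.33 in sham against 2.52, 4.48 and 3.72 in CCI-ION. Among all 28 pairs of the 8 named strands, 6 pairs (21.4%) had no overlap, against 15.7% of the 106491 pairs that 462 miRNAs with counts in every library can form. The other 3 pairs were miR-19a-3p to miR-20b-5p and miR-20a-5p to miR-106b-5p, both higher in CCI-ION, and miR-20b-5p to miR-93-5p, lower. Every one of the 6 includes miR-20a-5p or miR-20b-5p, so they are not independent. These ratios were looked at with the values known, and no test is given. miR-17-2-3p, from the same precursor as miR-20b, kept an overlapping ratio to miR-20b-5p (0.574 ± 0.043 in sham and 0.565 ± 0.087 in CCI-ION).

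**Figure D4:**
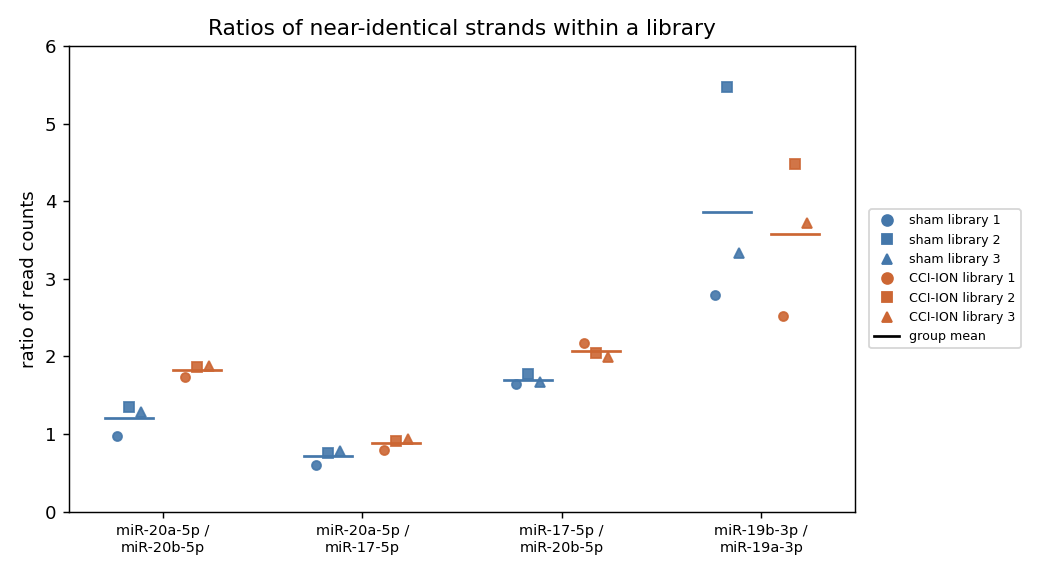
Ratio of read counts between near-identical strands in each library, 1 point per library and a line at each group mean, on an axis that starts at 0. In 3 of the 4 ratios the CCI-ION libraries lie above the sham libraries, as for miR-20a-5p over miR-20b-5p (1.73 to 1.88 against 0.981 to 1.35), while for miR-19b-3p over miR-19a-3p the groups overlap.

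Summed by gene of origin, the 6 strands made only on chromosome 15 had 80.52, 118.9 and 116.8 CPM in sham against 120.2, 170.8 and 149.5 in CCI-ION, with no overlap. miR-20a-5p makes up most of this sum. The 3 strands made only on chromosome X had 119.1, 140.2 and 134 CPM in sham against 100.4, 144.5 and 117.4 in CCI-ION, with overlap. The 4 chromosome 12 strands had 410.1, 435.8 and 456.2 CPM in sham against 473.3, 473.9 and 476.3 in CCI-ION, without overlap. By seed, the 5 AAAGUGC strands summed to 553.4 ± 43.3 CPM in sham against 632 ± 58.9 in CCI-ION, without overlap. The miR-19 strands summed to 29.6 ± 8.26 and 40.26 ± 13.9, with overlap. On the RPM scale the mean AAAGUGC sum was instead lower in CCI-ION, at 344.1 ± 56.3 in sham and 306.6 ± 24.7, but the libraries overlapped. The chromosome 12 sum was likewise 269.5 ± 37.8 against 231.1 ± 23.6 RPM, while the chromosome 15 sum was 66.04 ± 18.5 against 71.27 ± 12.2, each with overlap. The chromosome X sum did not overlap on that scale, at 66.01, 90.42 and 88.15 RPM in sham against 48.02, 64.1 and 63.29 in CCI-ION.

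The remaining strands of the 3 clusters, together with miR-92b, which has a locus of its own on chromosome 2, gave 8 further tested miRNAs. edgeR called 0 of these 8 without the block and 0 with it, with 0 and 1 at an unadjusted p under 0.05, and DESeq2 and limma-voom likewise called 0 in either fit. Their main strands carry another seed, AUUGCAC. miR-25-3p, the third strand of the Mcm7 cluster, had 1356 ± 84.4 CPM in sham against 1485 ± 89.0 in CCI-ION, above every member, with a log2 fold change of 0.13 ± 0.13. miR-363-3p, from chromosome X, had 314.9, 312.5 and 268 CPM in sham against 255.2, 271.5 and 240.8 in CCI-ION. It was lower in CCI-ION within each number and was not called (-0.22 ± 0.14, edgeR adjusted p = 0.776, with the block 0.216). The log2 fold change of miR-20b-5p had the same sign, but miR-20b-5p was 1.02 times higher in CCI-ION within number 2. miR-92a-3p, encoded on both chromosomes, was at 37.13 ± 6.18 and 36.31 ± 5.23 CPM. miR-25-3p was thus read at many times the level of miR-93-5p and miR-106b-5p, which are cut from the same precursor.

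Markers of several cell types were also compared between the groups. The 6 leukocyte miRNAs (miR-142-3p, miR-142-5p, miR-223-3p, miR-150-5p, miR-155-5p and miR-342-3p), all present in every library, summed to 271.4 to 301.7 CPM in sham and 352.4 to 381.6 in CCI-ION without overlap. Taken singly, all of them but miR-142-3p overlapped between the groups. With the block 3 of 6 were called higher, beside 6.05% of all tested miRNAs. The 6 neuronal miRNAs summed to 18620 to 22070 CPM and 15310 to 19200. With the block 4 of 6 were called lower, beside 5.62% of all tested miRNAs. Skeletal muscle markers (5 tested) summed to 5198 to 10670 and 3342 to 8419 CPM, with 2 called lower with the block. Without the block 0 markers were called in any of the lists. Erythroid (4), endothelial (2), sensory neuron (3) and myelinating glia (2 tested) markers had 0 called with the block, at adjusted p under 0.05 in edgeR, and fibroblast and mural markers 1 of 5. The defining glial miR-219a-5p was at 0 counts in 2 libraries. The part of these cells in the values of miR-20a-5p and its relatives was not tested.

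The named strands did not vary as 1 block. The SD over the 6 libraries of the log2 ratio between members was smallest for miR-17-5p and miR-93-5p (0.127), which come from different chromosomes, and largest for miR-18a-5p, with its 10 to 30 counts per library, and miR-19b-3p (0.715). Pairs that can come from 1 precursor covered much of that range. The value was 0.171 for miR-17-5p and miR-20b-5p, 0.234 for miR-17-5p and miR-20a-5p, 0.243 for miR-93-5p and miR-106b-5p, and 0.362 for miR-19a-3p and miR-20a-5p. It was 0.419 for miR-19a-3p and miR-19b-3p, 0.46 for miR-18a-5p and miR-20a-5p, and 0.634 for miR-18a-5p and miR-19a-3p. Outside the group, the 5 of 321 miRNAs with at least 10 CPM whose level ran closest to the summed 8 strands were miR-16-5p (SD of the log2 ratio 0.0873), miR-708-5p (0.0936), miR-224-5p (0.0986), miR-497-5p (0.0993) and miR-195-5p (0.107), where the median was 0.296. miR-16-5p had 1006, 1234 and 1224 CPM in sham against 1084, 1315 and 1199 in CCI-ION. Like the summed strands it was lowest in sham library 1 and highest in CCI-ION library 2, which follows largely from how it was chosen. All miRNAs of a library share its depth and scaling, and miR-25-3p ranked 18 by the same measure (0.148).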

How the data were processed

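The authors deposited raw read counts for 650 mature miRNAs in 6 libraries and, per library, RPM values that equal those counts times 1 constant (100% whole reads within 0.01 read). Reads were handled with cutadapt 1.14 and Bowtie 1.1.1 on rn6, per the submitters' processing notes. No source used here names the counter, the annotation or the handling of multi-matching reads. Groups and numbers came from sample titles.

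Counts were tested with edgeR 4.0.16 in R 4.3.3 (quasi-likelihood F test, robust, TMM, filterByExpr keeping 463 and leaving out 187, Benjamini-Hochberg over all 463, threshold 0.05), with DESeq2 1.42.0 and limma-voom (limma 3.58.1) as alternatives. SE is the fold change over the root of F. The procedure was tested on simulated data. Pairing rests on the data, since the meaning of the number is not stated. Deviations of same-numbered libraries correlated at 0.664, 0.591 and 0.457, and other combinations at -0.614 to 0.166. Deviations were taken from each group's mean, so positive values for same-numbered libraries push the other values down. The low values of the other combinations are thus partly forced. The block leaves 2 residual degrees of freedom, so its edgeR p-values rest largely on variance shared across miRNAs. The prior degrees of freedom from that sharing were 54.5 with the block and 3.3 without it. Arm shares used two-sided exact permutation tests. Near-identical means at most 2 differences over at least 19 bases, with shifts of up to 2. All libraries of a group differed by more than sampling noise (chi-square at least 165 times its degrees of freedom).

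Members, lists and tests were chosen with earlier results of these data known. All members were described. Other strands were named by cluster membership or by the smallest SD of the log2 ratio to the summed strands. Blocked fits with RLE or upper quartile factors were added after seeing the data. Intervals and floors cover counting error only, since the counts carry no molecular identifiers.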

Additional observations from a re-analysis of the deposited data

How the results depend on the processing

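Without the block no setting called a member or a partner: RLE or upper quartile factors, scaling to the totals behind the RPM, DESeq2, limma-voom, no filter, or leaving out any 1 library. With the replicate block, 1 member was called by edgeR, DESeq2 and limma-voom and under RLE factors, 2 under upper quartile factors, and 3, all lower, with scaling to the totals behind the RPM, where 2 partners (miR-363-3p and miR-92b-3p) were also called. Over all tested miRNAs the blocked fits called 6.05% higher with edgeR, 5.62% with DESeq2 and 4.75% with limma-voom. They called 28 of 463 higher under RLE factors and 9.29% under upper quartile factors. With scaling to the totals behind the RPM, 32.8% of all tested miRNAs were called lower. Leaving out libraries gave 0 to 2 called members. miR-20a-5p had 0.492 with the block, 0.497 with DESeq2 or RLE factors, 0.493 with limma-voom and 0.583 with upper quartile factors (called in each), 0.441 without the libraries numbered 1 (called), and 0.310 to 0.616 over all fits that left libraries out.

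Over all miRNAs, 3 calls became 6 when scaled to the totals behind the RPM or without the filter and 13 with DESeq2. With the block they became 54 (44 with DESeq2, 39 with limma-voom, 158 with RPM totals, 51 with RLE and 60 with upper quartile factors), leaving out 1 library gave 1 to 7, and leaving out both libraries of a number with the block gave 66, 27 and 2 (numbers 1, 2 and 3). The cause of these differences was not tested.

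Signs turned as follows. Scaled to the totals behind the RPM, without and with the block, miR-106b-3p had -0.250 and -0.247, miR-17-5p -0.180 and -0.168, miR-93-5p -0.170 and -0.163, and miR-25-3p -0.215 in each. Under upper quartile factors, without and with the block, miR-17-1-3p had 0.072 and 0.047, and miR-92a-3p 0.062 in each. Leaving out libraries moved miR-106b-5p from -0.314 to 0.019, miR-17-1-3p from -0.172 to 0.200 (0.134 with the block without number 2), miR-17-2-3p from -0.361 to 0.075, miR-93-3p from -0.256 to 0.097 (0.089 with the block without number 2) and miR-92a-3p from -0.171 to 0.094. The 5p share of miR-20b differed by -0.0567 to 2.43 percentage points. The members' share of counts was 0.00894 percentage points higher in CCI-ION, 0.00322 for members with no near-identical miRNA, -0.00653 as a share of the total behind the RPM, and 0.00631 to 0.0105 when libraries were left out.

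Depth limits miR-18a and miR-17-1-3p, with 4 to 30 counts for each tested strand in a library.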
